A study of Mus musculus with 31 samples.

Results

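The neutrophil marker genes described here are 10 genes that stand for neutrophils in bulk tissue: *S100a8*, *S100a9*, *Camp*, *Ngp*, *Csf3r*, *Cxcr2*, *Il1r2*, *Trem1*, *Clec4d* and *Clec4e*. They were found by gene symbol in the annotation of the Affymetrix Mouse Genome array, which gave 12 of 45037 probe sets, and 10 of 18193 genes with a probe set of their own. *Trem1* and *Clec4e* each have 2 probe sets, and the brighter one represents the gene unless the other is named. The genes were selected on their signals in the tissue arrays, so every difference between tissue groups in these 10 genes is a description and carries no test.

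The tissue arrays hold 11 tumors, 5 large hyperplasias and 5 small hyperplasias from K5ΔNβcat mice, and 4 samples of mammary tissue from control mice, 1 array each. In K5ΔNβcat mice the keratin 5 promoter drives a stabilised β-catenin without its N-terminus in basal epithelial cells, and leukocytes of a lesion are not targeted by that promoter. Basal mammary cells sorted from control mice and from K5creMycL/L mice, in which Cre under the keratin 5 promoter deletes *Myc*, gave 3 arrays of each genotype, and their labels list no ΔNβcat transgene. The labels give the strain of every sample as C57BL6, while the methods of the study give a mixed 129SV/C57BL6 background. Each sorted sample is a pool of several mice. The labels do not say whether each tissue sample came from its own animal, so a p-value covers only the spread over these arrays, which may be technical in part. The labels give no ages. Genes of the lists below that fall outside the stated naming rule were named after their values were seen. They are *Lcn2*, *Mpo*, *Elane*, *Ctsg*, *Ltf*, *Mmp8*, *Mmp9*, *Ncf4*, *Prtn3*, *Cd177*, *Trem3*, *Alox5ap*, *Csf3*, *Hc*, *Bsg*, *Tlr4*, *Ager*, *Cd14*, *Ly96*, *S100pbp*, *Ptprc* and *Krt8*.

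Neutrophils are short-lived granulocytes made in bone marrow under the cytokine G-CSF and drawn from blood into tissue by CXC chemokines. Granule proteins are transcribed mainly while the cells mature in the marrow, whereas chemokine, cytokine and pattern receptors mark mature and activated cells. S100A8 and S100A9 form calprotectin, an abundant calcium- and zinc-binding protein of neutrophil cytosol. Keratinocytes make calprotectin too when they are activated, and monocytes share several of the receptors. In bulk tissue, fewer cells of a type and less RNA per cell cannot be told apart.

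Promoter sequence is shown for the calprotectin genes and the granule genes, since the pairs followed different orders over the tumors. The windows are the 250 bases before the annotated start in RefSeq, build GRCm38.p6, written 5′ to 3′ on the strand of the gene. Capitals mark a match on either strand to the C/EBP-like motif TTGCNNAA or to the PU.1-like motif AGGAAGT, letters bound by transcription factors of the myeloid lineage. The first pair lies on chromosome 3, *S100a8* at chr3:90668821-90669070 on the plus strand and *S100a9* at chr3:90695722-90695971 on the minus strand. The other pair lies on chromosome 9, *Camp* at chr9:109849457-109849706 on the minus strand and *Ngp* at chr9:110419558-110419807 on the plus strand.
S100a8: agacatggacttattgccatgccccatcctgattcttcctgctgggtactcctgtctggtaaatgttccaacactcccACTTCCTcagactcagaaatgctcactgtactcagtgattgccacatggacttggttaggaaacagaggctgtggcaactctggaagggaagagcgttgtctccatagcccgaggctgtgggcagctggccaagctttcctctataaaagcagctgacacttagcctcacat
S100a9: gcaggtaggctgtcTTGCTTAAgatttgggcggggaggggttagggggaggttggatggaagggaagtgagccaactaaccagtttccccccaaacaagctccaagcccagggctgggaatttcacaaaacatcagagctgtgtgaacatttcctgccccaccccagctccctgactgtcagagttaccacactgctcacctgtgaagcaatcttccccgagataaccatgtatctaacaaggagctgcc
Camp: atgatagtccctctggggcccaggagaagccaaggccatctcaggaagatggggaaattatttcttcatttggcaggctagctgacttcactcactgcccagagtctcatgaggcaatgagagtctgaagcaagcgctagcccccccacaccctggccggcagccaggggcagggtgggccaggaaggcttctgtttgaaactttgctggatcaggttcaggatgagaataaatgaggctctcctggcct
Ngp: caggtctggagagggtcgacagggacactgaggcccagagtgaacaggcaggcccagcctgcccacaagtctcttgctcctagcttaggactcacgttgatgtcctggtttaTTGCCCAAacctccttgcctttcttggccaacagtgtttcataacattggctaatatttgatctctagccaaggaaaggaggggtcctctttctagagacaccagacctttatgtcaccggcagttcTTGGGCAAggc

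The C/EBP-like letters were found once in the *S100a9* window and at 2 places in the *Ngp* window, and the PU.1-like letters once in that of *S100a8*. *Camp* had neither. Of all 10 member windows, 3 held the C/EBP-like motif (*Clec4e* was the third) and 2 held the PU.1-like motif (*S100a8* and *Trem1*), while 9.56% and 7.69% of 32851 mouse promoter windows of this length held them. A match is a description of letters and not of binding.

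Signals are the MAS5 values of the array, on a linear scale, and a signal of 30 is the background limit named in the methods of the study. On each tissue array 46.2% to 51.9% of the probe sets reached this limit, and on each array of sorted cells 38.5% to 42.8%. Log2 differences were computed on log2(signal + 16), which shrinks the change of dim genes, and their standard errors come from the limma fit over all tissue arrays. A member had to reach a median of 30 in the brighter group to enter that fit. All 10 members did so for tumors, 9 for large hyperplasias (*Cxcr2* was too dim) and 7 for small hyperplasias (*Camp*, *Ngp* and *Cxcr2* were too dim).

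All 10 genes had a higher mean in tumors than in control tissue, by 1.49 to 7.01 on the log2 scale with a median of 2.53, and 8 of the 10 were higher on every tumor than on every control array. Among all 24086 probe sets tested, 19.7% were higher without overlap. Large hyperplasias also had 8 members above every control array, with a median log2 difference of 2.05, beside 20.8% of 24001 probe sets. Small hyperplasias had 4 such members, *S100a8*, *S100a9*, *Csf3r* and *Cxcr2*, with a median of 1.08, beside 12.0% of 23489 probe sets. The medians over all probe sets tested were -0.03, 0.06 and -0.00 in that order. Since these contrasts chose the genes, nothing is read from the counts.

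**Figure D1:**
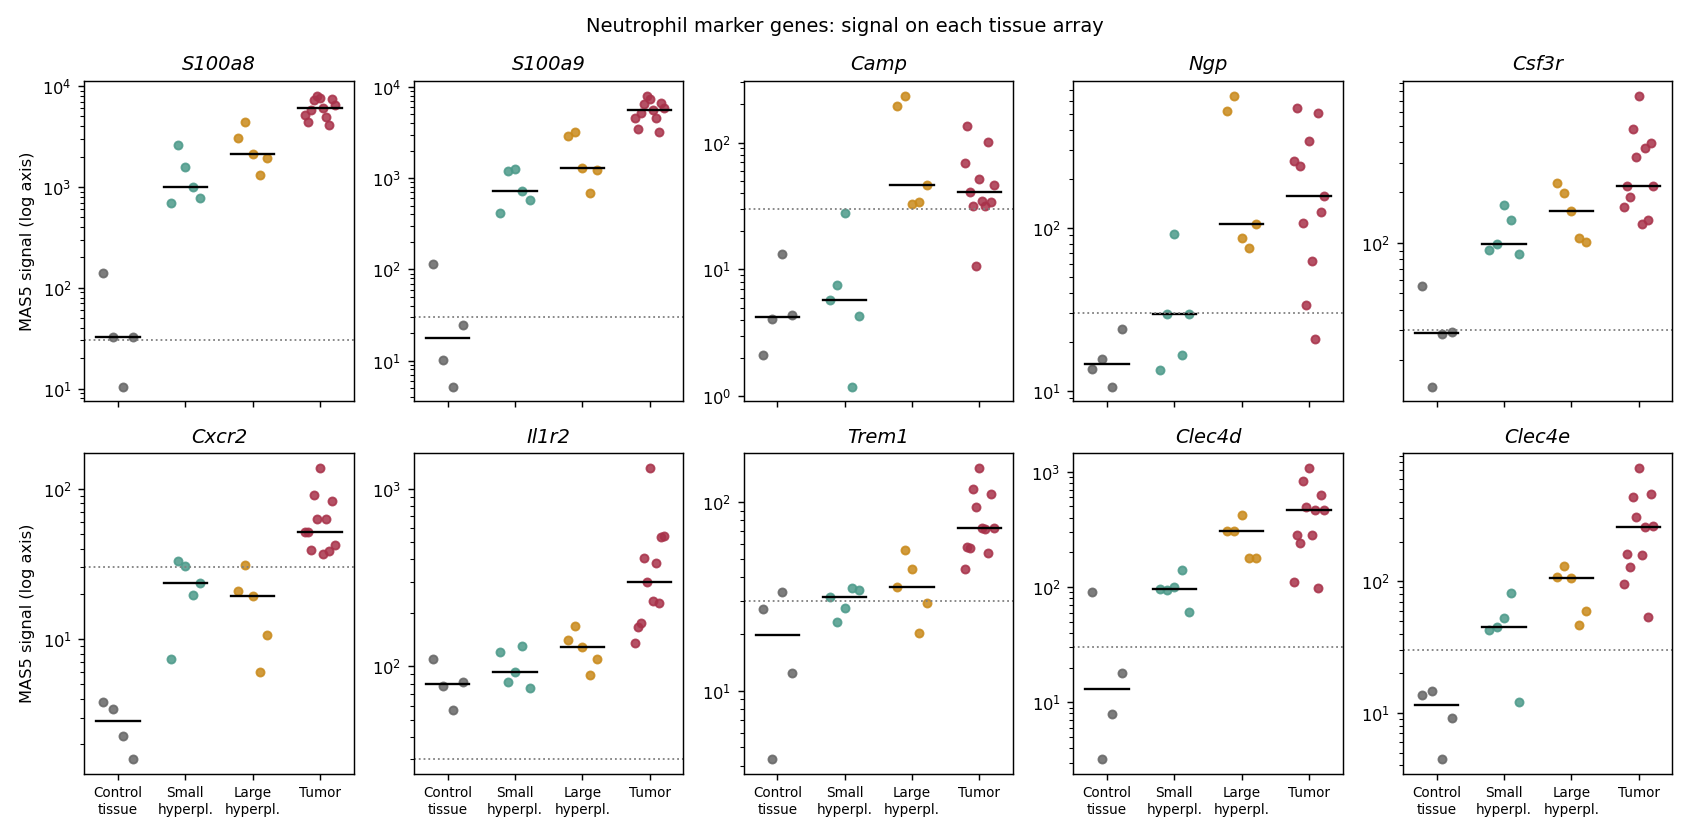
MAS5 signal (log axis) of each neutrophil marker gene on each of the 25 tissue arrays, with 1 point per array, a bar at the group median and a dotted line at the background limit of 30. *S100a8* and *S100a9* rise from medians of 32.6 and 17.5 in control tissue to 6120 and 5544 in tumors, while *Camp* and *Ngp* are highest on large hyperplasia 2.

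The calprotectin genes had the largest differences from control tissue of the 10. *S100a8*, the calcium-binding partner that S100A9 needs for the heterodimer, had signals of 141, 32.7, 10.4 and 32.5 in control tissue. They were 694, 2582, 1568, 991 and 775 in small hyperplasias and 3052, 4402, 2101, 1316 and 1950 in large hyperplasias. Tumors ran from 4143 through a median of 6120 to 8057, so that small and large hyperplasias overlapped, 9 of 11 tumors lay above every large hyperplasia, and every lesion lay above every control array. The log2 difference of *S100a8* from control tissue was 4.40 (standard error 0.40) in small hyperplasias, 5.41 (standard error 0.40) in large hyperplasias and 6.74 (standard error 0.35) in tumors.

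*S100a9*, the partner of S100A8 in calprotectin, had signals of 114, 10.1, 5.17 and 24.9 in control tissue, with control array 1 again the highest. Small hyperplasias gave 416, 1196, 1255, 729 and 579, and large hyperplasias 2893, 3172, 1293, 680 and 1219. Tumors ran from 3177 through 5544 to 8016, and all 11 lay above every large hyperplasia. The log2 differences from control tissue were 4.24 (standard error 0.45), 5.27 (standard error 0.45) and 7.01 (standard error 0.39) in the order small, large, tumor.

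Genes of squamous keratinocytes, cells that can also make calprotectin, moved in the same order as *S100a8* and *S100a9*. Their summed signal over 25 genes ran from 580 to 993 on control arrays, from 8317 to 15404 on small hyperplasias, from 12418 to 24279 on large ones and from 43171 to 81346 on tumors. Of 24 squamous genes tested in tumors, 24 were higher than in control tissue, with a median log2 difference of 5.98, where limma called 33.2% of all probe sets higher and 35.9% lower. *Krt6b*, a keratin of activated epidermis, averaged 5878 ± 630 (SD, n = 11) over the tumors against 4.41 ± 7.03 (SD, n = 4) over the control arrays. In large hyperplasias 21 of 22 squamous genes rose, beside 25.6% of all probe sets, and in small hyperplasias also 21 of 22, beside 16.8%. The part of these cells in the *S100a8* and *S100a9* signals was not tested.

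The granule genes had another order, and both had their highest signal on large hyperplasia 2. *Camp*, which encodes the cathelicidin antimicrobial peptide of secondary granules, gave 2.10, 4.05, 13.2 and 4.34 in control tissue and 5.76, 7.55, 27.7, 1.19 and 4.27 in small hyperplasias, all below background. Large hyperplasias gave 196, 235, 32.8, 33.9 and 46.2. Tumors ran from 10.6 through 40.5 to 136, so 10 of 11 lay above every control array and none above the highest large hyperplasia.

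*Camp* averaged 109 ± 98.6 (SD, n = 5) over the large hyperplasias against 53.5 ± 36.2 (SD, n = 11) over the tumors, and these groups overlapped. Set against the background limit in place of the dim control signals, *Camp* was at least 2.5-fold higher in large hyperplasias and at least 1.46-fold higher in tumors.

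*Ngp*, neutrophilic granule protein, followed *Camp* closely over the large hyperplasias and the tumors, and less so over the dimmer control and small hyperplasia arrays. It gave 13.5, 15.7, 10.6 and 23.9 in control tissue and 13.3, 29.6, 91.6, 16.6 and 29.7 in small hyperplasias. The large hyperplasias gave 525, 650, 86.6, 75.1 and 106, and the tumors ran from 20.8 through 157 to 544. Replicates 1 and 2 of the large hyperplasias, replicate 3 of the small hyperplasias, and tumors 2 and 9 were the highest of their groups for both genes. By the same bound, *Ngp* exceeded control tissue at least 6.26-fold in large hyperplasias and at least 4.79-fold in tumors. Tumors minus large hyperplasias came to -0.62 (standard error 0.37) for *Camp* and -0.31 (standard error 0.56) for *Ngp*, both smaller than the spread between arrays.

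Of 4 enzymes of the earliest, primary granules, *Mpo*, *Elane* and *Ctsg* were highest on some of the same arrays. Myeloperoxidase (*Mpo*) reached 70.0 and 157 in large hyperplasias 1 and 2, 74.4 in tumor 2 and 39.5 in tumor 9, and was below 30 on the other tissue arrays. Neutrophil elastase (*Elane*) reached 56.5, 92.5 and 58.0 on large hyperplasias 1 and 2 and tumor 2, beside 33.7 and 32.1 on control arrays 1 and 3. Cathepsin G (*Ctsg*) reached 54.2, 69.4 and 44.8 on these lesions and 30.2 on large hyperplasia 3. Proteinase 3 (*Prtn3*) followed them in part. It was the highest of its group on large hyperplasia 2 and on tumor 2, at 145 and 86.6. However, it gave 63.7 on large hyperplasia 1, 195 and 152 on small hyperplasias 1 and 2, and 88.4 to 114 on control arrays. Lactoferrin (*Ltf*), a secondary granule protein that mammary epithelium also secretes, did not follow them, with 3006 in tumor 8, where *Ngp* was lowest.

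The 6 receptor genes had medians below background in control tissue, apart from *Il1r2*, and their highest medians in tumors. *Csf3r*, the receptor for G-CSF, gave 54.9, 13.8, 28.4 and 29.5 in control tissue and 91.2, 98.2, 168, 138 and 86.0 in small hyperplasias. Large hyperplasias gave 227, 200, 155, 107 and 102, and tumors ran from 129 through 219 to 756. Both hyperplasia groups lay above every control array and overlapped with each other, and 5 of 11 tumors lay above every large hyperplasia. Its log2 difference from control tissue was 1.5 (standard error 0.38), 1.88 (standard error 0.38) and 2.63 (standard error 0.33) in the order small, large, tumor.

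*Cxcr2*, the receptor for the CXC chemokines that draw neutrophils, was below 4 on every control array. It gave 7.32, 33.2, 30.4, 19.6 and 23.7 in small hyperplasias and 20.8, 31.0, 19.4, 6.04 and 10.7 in large hyperplasias, mostly under the background limit, and the sizes overlapped. Tumors ran from 36.9 through 51.9 to 138, all above every hyperplasia. By the same bound, tumors exceeded control tissue at least 1.94-fold for *Cxcr2*.

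*Il1r2*, a decoy receptor that binds interleukin-1 without signalling, was above background in control tissue, at 109, 77.6, 57.0 and 81.4. Small hyperplasias gave 120, 81.3, 92.8, 129 and 75.2, and large hyperplasias 141, 168, 129, 89.4 and 109, and both overlapped with control tissue. Tumors ran from 135 through 298 to 1310, above every control array, with the top value in tumor 6. The log2 difference was 0.25 (standard error 0.41) in small hyperplasias, 0.56 (standard error 0.41) in large hyperplasias and 1.83 (standard error 0.36) in tumors.

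*Trem1*, an activating receptor that amplifies inflammatory signals in myeloid cells, gave 27.1, 4.33, 33.6 and 12.3 in control tissue. Hyperplasias ran from 20.2 to 55.7, overlapping with control tissue in both sizes, and tumors from 44.0 through 72.7 to 152. Its log2 difference was 1.49 (standard error 0.23) in tumors. The dimmer probe set of *Trem1* was below 30 on all control and hyperplasia arrays and reached 30 on 6 of 11 tumors.

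*Clec4d* and *Clec4e* encode C-type lectin receptors for glycolipids of microbes and damaged cells, and both lie on chromosome 6. *Clec4d* gave 90.9, 3.21, 7.95 and 18.0 in control tissue, 95.7, 93.4, 99.0, 139 and 60.2 in small hyperplasias and 309, 303, 417, 178 and 179 in large hyperplasias. Small hyperplasia 5 lay below control array 1, and every large hyperplasia lay above every small one. Tumors ran from 98.8 through 461 to 1077 and so reached below the lowest large hyperplasia. The log2 difference from control tissue was 1.62 (standard error 0.53), 2.96 (standard error 0.53) and 3.40 (standard error 0.47) in the order small, large, tumor.

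*Clec4e* gave 13.6, 14.8, 4.47 and 9.24 in control tissue and 42.8, 44.9, 52.4, 81.1 and 12.2 in small hyperplasias, of which the last overlapped with control tissue. Large hyperplasias ran from 46.3 to 130 and tumors from 53.5 through 259 to 725, with 8 of 11 tumors above every large hyperplasia. By the same bound, it exceeded control tissue at least 2.78-fold in large hyperplasias and at least 7.25-fold in tumors. The dimmer probe set of *Clec4e* had the same order of medians, 10.3 in control tissue, 14.4 and 27.4 in small and large hyperplasias and 66.7 in tumors.

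**Figure D2:**
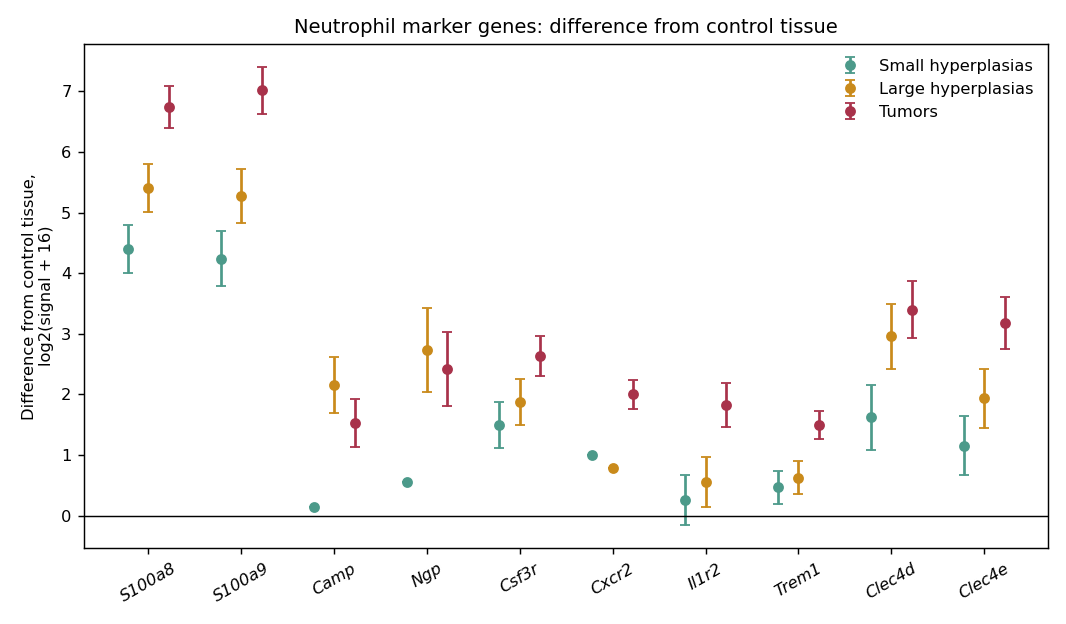
Difference of each neutrophil marker gene from control tissue on log2(signal + 16), for small hyperplasias, large hyperplasias and tumors, with bars of 1 standard error of limma (no bar where the gene was below the background limit in both groups). *S100a8* and *S100a9* reach 6.74 and 7.01 in tumors, and *Camp* and *Ngp* reach 2.15 and 2.74 in large hyperplasias and 1.53 and 2.42 in tumors.

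Setting the lesions against each other, tumors had a higher mean than large hyperplasias for 8 members and a lower mean for *Camp* and *Ngp*. For *Ngp* the medians ran the other way, 157 in tumors and 106 in large hyperplasias, and the log2 difference turned to 0.03 without large hyperplasia 1 and to 0.10 without large hyperplasia 2. Only *S100a9* and *Cxcr2* of the 10 were higher without overlap, where 8.93% of 23747 probe sets were. Large hyperplasias had a higher mean than small hyperplasias for 9 members, with *Cxcr2* lower, and *Camp* and *Clec4d* were higher without overlap, beside 5.2% of 23456 probe sets. *Camp* was at least 2.5-fold higher in large than in small hyperplasias, while *Csf3r* differed by 0.37 on the log2 scale (standard error 0.36).

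Control array 1 held the highest signal of the 4 control arrays for *S100a8*, *S100a9*, *Csf3r*, *Cxcr2*, *Il1r2* and *Clec4d*. It also held the highest summed signal of 10 genes shared by leukocytes, 5082, beside a median of 2458 over the 4 arrays. Without it, 8, 9 and 5 members lay above every control array in tumors, large hyperplasias and small hyperplasias, in place of 8, 8 and 4. This alternative was chosen after seeing the data.

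Within the group of tumors, calprotectin and the receptors had similar orders and the granule genes another. Tumor 6 had the highest signal of all 6 receptors, with tumors 4 and 10 next for *Csf3r*, *Cxcr2*, *Trem1*, *Clec4d* and *Clec4e* in either order. Tumors 2 and 9 were first and second for *Camp* and *Ngp*, and tumor 9 was last for *S100a8*, *S100a9*, *Clec4d* and *Clec4e*. Tumor 5 was first for both calprotectin genes and last for *Camp*.

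As a description over 11 tumors of Spearman correlations, with no test because the pattern was noted in these data, *S100a8* and *S100a9* gave rho = 0.99 and *Camp* and *Ngp* gave rho = 0.95. The 15 pairs of receptors ran from 0.56 to 0.98. The 12 pairs of a granule gene with a receptor ran from -0.53 to -0.17, and the 4 pairs of a granule gene with a calprotectin gene from -0.63 to -0.41. The 12 pairs of calprotectin with a receptor ran from 0.55 to 0.87. Without tumor 6, an alternative chosen after seeing the data, receptor pairs ran from 0.42 to 0.98 and pairs of granule gene and receptor from -0.72 to -0.38. All values of a tumor come from 1 array and share its scaling, and several tumors may come from 1 animal.

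**Figure D3:**
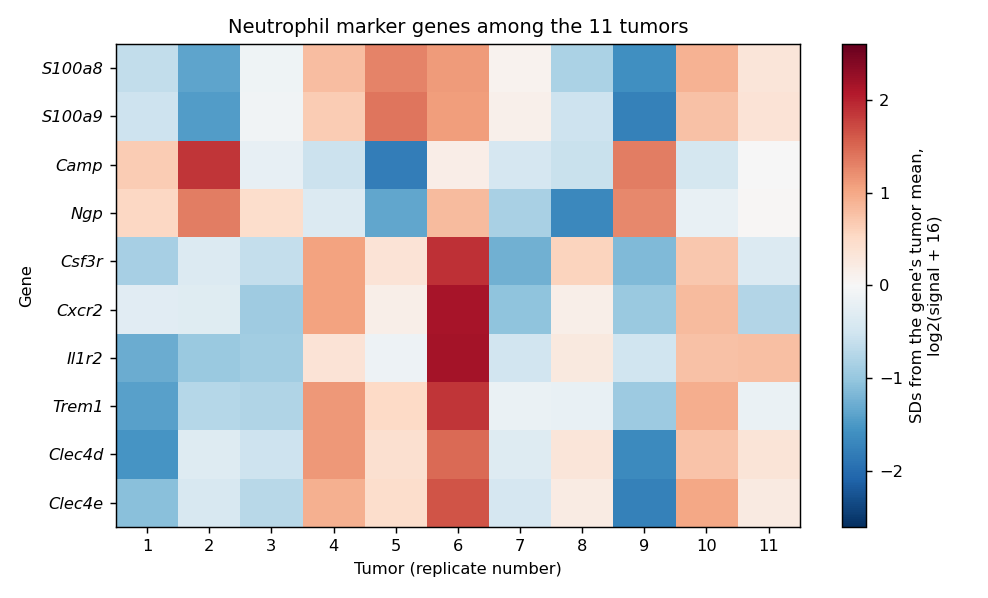
Each neutrophil marker gene (rows) in each of the 11 tumors (columns, replicate number), as SDs from the mean of the gene over the tumors on log2(signal + 16). Tumor 6 is the highest for all 6 receptors, and tumors 2 and 9 are the highest for *Camp* and *Ngp* and among the lower ones for *S100a8* and *S100a9*.

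Other neutrophil genes, which are not members, were tested with limma, though this list too was chosen with earlier results of these data known. Of a list of 37 granule, cytosol and lineage genes, 28 had a probe set of their own, and *Ly6g*, *Retnlg*, *Cxcr1* and *Fpr1* were not among them. In tumors 15 of 21 tested genes rose against control tissue and 2 fell, with a median log2 difference of 1.5 (1.12 with dim groups taken at their bound). Among all probe sets limma called 33.2% higher and 35.9% lower there. In large hyperplasias 12 of 19 rose and 1 fell, with a median of 1.20 (0.63 with bounds), where limma called 25.6% of all probe sets higher and 20.1% lower. In small hyperplasias 7 of 16 rose and 1 fell, with a median of 0.77, beside 16.8% higher and 14.4% lower among all probe sets.

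*Stfa3*, a stefin that inhibits cathepsins, rose the most, from 5.41 ± 4.38 (SD, n = 4) in control tissue to 217 ± 75.0 (SD, n = 5), 264 ± 42.8 (SD, n = 5) and 3989 ± 835 (SD, n = 11) in small hyperplasias, large hyperplasias and tumors. That is at least 6.87-, 8.72- and 130-fold higher (limma, adjusted p = 9.5e-12, 7.4e-13 and 1.5e-20). *Stfa2l1*, a related stefin, was at least 42.8-fold higher in tumors (limma, adjusted p = 3.6e-14). Stefin genes are near-identical copies of each other, so their probe sets may share signal, and epidermis makes stefins too.

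*Hdc*, which makes histamine, was at least 7.02-fold higher in tumors (limma, adjusted p = 4.6e-07) and at least 2.21-fold higher in large hyperplasias (limma, adjusted p = 0.0043). *Chil3*, a chitinase-like protein of neutrophils and macrophages, rose by 3.03 on the log2 scale in small hyperplasias (standard error 0.61, limma adjusted p = 5.5e-04) and by 2.24 in large hyperplasias (standard error 0.61, limma adjusted p = 0.0041). The oxidase subunits *Cybb*, *Ncf1* and *Ncf4*, which neutrophils share with macrophages, rose in all 3 lesion groups, for example *Cybb* by 1.79 in large hyperplasias (standard error 0.25, limma adjusted p = 2.5e-06).

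The genes that fell were *G0s2* and *Prtn3*. *G0s2*, a lipase inhibitor that fat cells also make, fell by 3.86 on the log2 scale in tumors (standard error 0.33, limma adjusted p = 1.6e-10). Fat cell genes fell beside it: the summed signal of 8 of them was 51361 to 57656 in control tissue and 1381 to 6862 in tumors. Their part in *G0s2* was not tested. In small hyperplasias *G0s2* fell by 1.09 (limma adjusted p = 0.0304), a call lost without small hyperplasia 5 or without control array 1, 2 or 3, where the number of list genes called lower was 0. *Prtn3*, proteinase 3 of primary granules, fell by 1.14 in tumors (standard error 0.32, limma adjusted p = 0.0031). *Lcn2*, lipocalin of secondary granules that epithelium also makes, had a log2 difference of 0.58 in tumors (limma adjusted p = 0.0745).

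Against large hyperplasias, tumors had 8 of 22 other neutrophil genes higher and 3 lower, where limma called 21.0% of all probe sets higher and 32.9% lower. *Stfa3* rose by 3.82 on the log2 scale (limma adjusted p = 3.7e-14) and *Mmp9*, the gelatinase of tertiary granules, by 2.46 (limma adjusted p = 3.5e-06). *Mmp8*, the neutrophil collagenase, rose by 1.58 (limma adjusted p = 0.0015), and *Ctsg* fell by 0.87 (limma adjusted p = 0.0037). Leaving out 1 array at a time gave 6 to 11 higher and 2 to 6 lower, with 6 lower without large hyperplasia 4.

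Genes that draw, expand or activate neutrophils were measured next, on a list of 15 with 14 on the array. In tumors 11 of 12 tested genes rose and 1 fell, with a median log2 difference of 2.30 (1.87 with bounds). In large hyperplasias 5 of 8 rose and in small hyperplasias 3 of 8, and none fell in either. Among all probe sets limma called 33.2%, 25.6% and 16.8% higher in tumors, large hyperplasias and small hyperplasias. It called 35.9%, 20.1% and 14.4% lower.

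*Cxcl5* and *Cxcl2*, chemokines that bind CXCR2, had the largest differences in tumors. *Cxcl5* averaged 779 ± 523 (SD, n = 11) over the tumors against 16 ± 27.0 (SD, n = 4) over the control arrays, and its log2 difference was 4.70 (standard error 0.40, limma adjusted p = 1.4e-10). *Cxcl2* rose by 4.16 in tumors, by 3.35 in large hyperplasias and by 2.07 in small hyperplasias (limma, adjusted p = 2.5e-07, 1.1e-04 and 0.013), the last lost without control array 2. *Cxcl3* rose by 3.52 in tumors and by 1.98 in large hyperplasias (limma, adjusted p = 4.4e-07 and 0.0046). *Il1b*, the interleukin-1 that the *Il1r2* decoy binds, rose by 3.96, 2.28 and 1.66 in tumors, large hyperplasias and small hyperplasias (limma, adjusted p = 1.0e-08, 4.9e-04 and 0.012).

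*Csf3*, which encodes G-CSF, the ligand of *Csf3r*, was below the background limit in hyperplasias and was not tested there against control tissue. Its means were 12.5 ± 5.85 (SD, n = 5) and 11.8 ± 6.93 (SD, n = 5) in small and large hyperplasias. In tumors *Csf3* was 90.8 ± 71.3 (SD, n = 11), at least 2.26-fold higher than in control tissue (limma, adjusted p = 4.2e-04) and than in large hyperplasias (limma, adjusted p = 3.3e-04). *Hc*, complement C5, fell by 0.74 in tumors (standard error 0.26, limma adjusted p = 0.015), a call lost without control array 3.

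**Figure D4:**
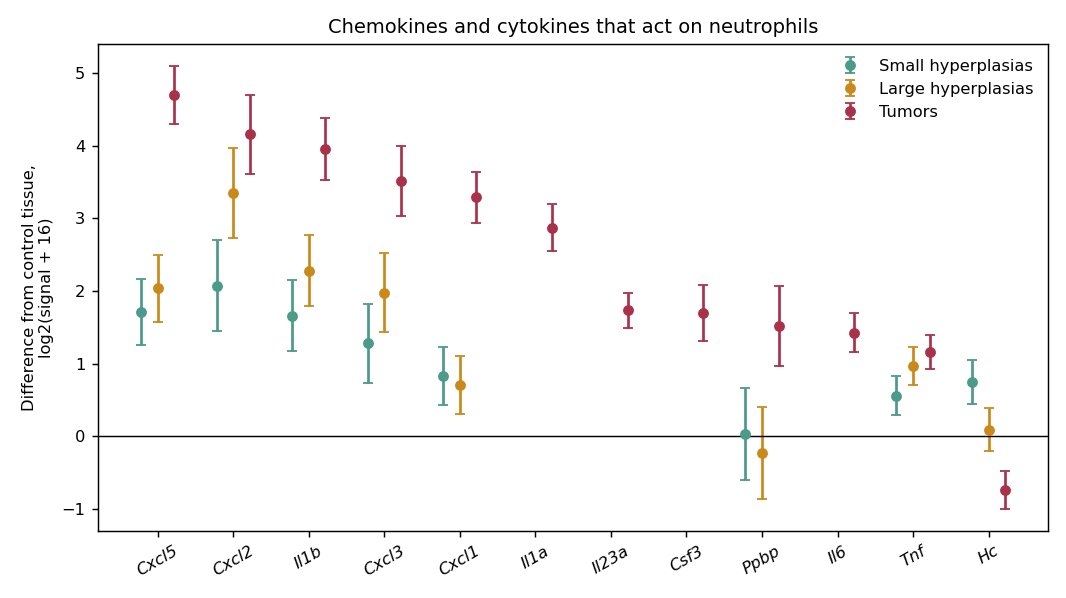
Difference from control tissue on log2(signal + 16) of 12 genes whose products draw, expand or activate neutrophils, for small hyperplasias, large hyperplasias and tumors, with bars of 1 standard error; a group is left out where the gene was below the background limit. In tumors 11 of the 12 are called higher (beside 33.2% of all probe sets), led by *Cxcl5* at 4.70, and *Hc* is called lower.

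A list of signalling partners of the receptors also held receptors of calprotectin. Of 15 tested, 11 rose and 1 fell in tumors and in large hyperplasias, and 5 rose in small hyperplasias. Among all probe sets limma called 33.2%, 25.6% and 16.8% higher in tumors, large hyperplasias and small hyperplasias. It called 35.9%, 20.1% and 14.4% lower. Of the calprotectin receptors, *Tlr4* and *Bsg* were not called higher against control tissue in any lesion group, and *Ager* was too dim to test. Against large hyperplasias, *Bsg* was higher in tumors by 0.21 (limma adjusted p = 0.04). *Cd14* and *Ly96* of the same list rose in tumors by 0.89 and 0.73 (limma, adjusted p = 4.8e-04 and 4.6e-06). In large hyperplasias *Ly96* rose by 0.38 (limma adjusted p = 0.0225) and *Cd14* was not called. Neither was called in small hyperplasias. *Il1rn*, the antagonist of interleukin-1, rose by 3.87, 2.86 and 1.99 in tumors, large hyperplasias and small hyperplasias (limma, adjusted p = 1.0e-10, 9.9e-07 and 2.5e-04). *Socs3*, the feedback inhibitor of G-CSF receptor signalling, rose by 2.99, 1.42 and 1.48 (limma, adjusted p = 8.7e-14, 2.7e-06 and 4.7e-06). *Tyrobp*, the adaptor of TREM1, and *Fcer1g*, the adaptor of the C-type lectins, rose in all 3 lesion groups, *Tyrobp* by 1.64 and *Fcer1g* by 1.5 in large hyperplasias (limma, adjusted p = 3.1e-06 and 1.6e-04). *Bsg*, a receptor for S100A9, had a log2 difference of -0.44 in large hyperplasias (limma adjusted p = 0.0015). In tumors *Bsg* fell by 0.23 (limma adjusted p = 0.031), a call lost without control array 1, 2 or 3. The rise of *Fcer1g* in small hyperplasias was lost without small hyperplasia 4 or 5 or control array 2, 3 or 4. *Tlr4*, a receptor for calprotectin, had a log2 difference of 0.05 in tumors (limma adjusted p = 0.655).

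Other S100 genes were called in both directions. In tumors 3 of 9 rose and 4 fell, with a median of -0.07, where limma called 33.2% of all probe sets higher and 35.9% lower. Without *S100pbp*, a binding protein of an S100 protein that the list also held, 3 of 8 rose and 3 fell, with a median of 0.33, an alternative chosen after seeing the data. In both hyperplasia groups 5 of 10 rose, while 2 fell in large (4 without control array 4) and 1 in small hyperplasias. Among all probe sets, 25.6% and 16.8% were called higher in large and small hyperplasias, and 20.1% and 14.4% lower. *S100a14*, an S100 gene of epithelium, rose by 5.25 in tumors (standard error 0.18, limma adjusted p = 1.1e-17). *S100a1*, abundant in muscle, fell by 2.00 in tumors (standard error 0.17, limma adjusted p = 2.0e-10). *S100a3*, known from the hair follicle, was at least 7.04-fold higher in large hyperplasias (limma, adjusted p = 2.2e-05) and was not tested in tumors against control tissue.

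Markers of other leukocytes were set beside the receptors. Against control tissue, limma called 33.2%, 25.6% and 16.8% of all probe sets higher in tumors, large hyperplasias and small hyperplasias. It called 35.9%, 20.1% and 14.4% lower. Genes shared by leukocytes rose 10 of 10 in tumors and in large hyperplasias and 8 of 10 in small hyperplasias, and their summed signal was 2146 to 5082 in control tissue, 4930 to 6772 and 7018 to 10612 in small and large hyperplasias and 3699 to 9702 in tumors. In small hyperplasias the 8 became 4 without control array 2 and 5 without control array 4 or small hyperplasia 5. Macrophage genes rose 7 of 14 in tumors, 13 of 14 in large hyperplasias and 9 of 14 in small hyperplasias. Their summed signal was 7402 to 12268 in control tissue, 11126 to 16869 and 17685 to 22344 in small and large hyperplasias, and 9702 to 17450 in tumors, and *Cd163*, a scavenger receptor of macrophages, fell by 2.04 in tumors (limma adjusted p = 2.4e-05). Against large hyperplasias, tumors had 8 of 14 macrophage genes lower and none higher. Among all probe sets in that comparison, limma called 32.9% lower and 21.0% higher. Lymphocyte genes rose 7 of 8 in large hyperplasias, such as *Cd3g* of T cells by 1.69 and *Ms4a1* of B cells by 1.68 (limma, adjusted p = 8.4e-05 and 0.0012), and 0 of 7 in small hyperplasias (1 without control array 3 or without tumor 9 or 11). In tumors 2 of 5 rose, near the 33.2% of all probe sets. *Cd2* fell there by 0.42 (limma adjusted p = 0.0455). That call was lost without tumor 1, 3, 6, 7 or 9, large hyperplasia 4 or control array 3, and with no offset. Against large hyperplasias 7 of 7 fell in tumors. Their summed signal ran from 194 to 286 on control arrays, from 414 to 983 on large hyperplasias and from 104 to 419 on tumors. The part of macrophages and monocytes in *Trem1*, *Clec4d* and *Clec4e* was not tested.

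Among the 11 tumors, each member was set against the mean of 21 other neutrophil genes, 24 squamous genes and 14 macrophage genes, 30 relations in all. No gene of the red blood cell list reached a tumor median of 30, so that list gave no relation. The tumor signals were among those that chose the 10 genes, so these correlations are a description with no test.

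The receptors had the highest values with the other neutrophil genes. *Csf3r* gave r = 0.90 and rho = 0.88, and r = 0.79 without tumors 4 and 6, the tumors farthest from the median of the list. *Cxcr2* gave r = 0.90 and rho = 0.78, and r = 0.69 without them. *Clec4d* and *Clec4e* gave r = 0.81 and 0.84, or 0.72 and 0.76 without them, and *Il1r2* and *Trem1* also 0.81 and 0.82, or 0.53 and 0.56 without them. With the macrophage list, *Csf3r*, *Clec4d* and *Clec4e* gave r = 0.74, 0.85 and 0.81, and 0.68, 0.59 and 0.54 without tumors 1 and 9. *Cxcr2*, *Il1r2* and *Trem1* gave r = 0.58, 0.46 and 0.65 with that list, and 0.57, 0.27 and 0.44 without these tumors.

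*Camp* and *Ngp* gave r = -0.10 and 0.16 with the other neutrophil genes. With the macrophage list these 2 granule genes gave r = -0.52 and -0.40, or -0.20 and -0.03 without tumors 1 and 9. *S100a8* and *S100a9* gave r = 0.20 and 0.19 with the squamous list within tumors, or 0.03 and -0.0006 without tumors 2 and 11. With the other neutrophil genes they gave r = 0.58 and 0.55, or 0.43 and 0.40 without tumors 4 and 6. With the macrophage list they gave r = 0.63 and 0.64, or 0.32 and 0.30 without tumors 1 and 9.

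**Figure D5:**
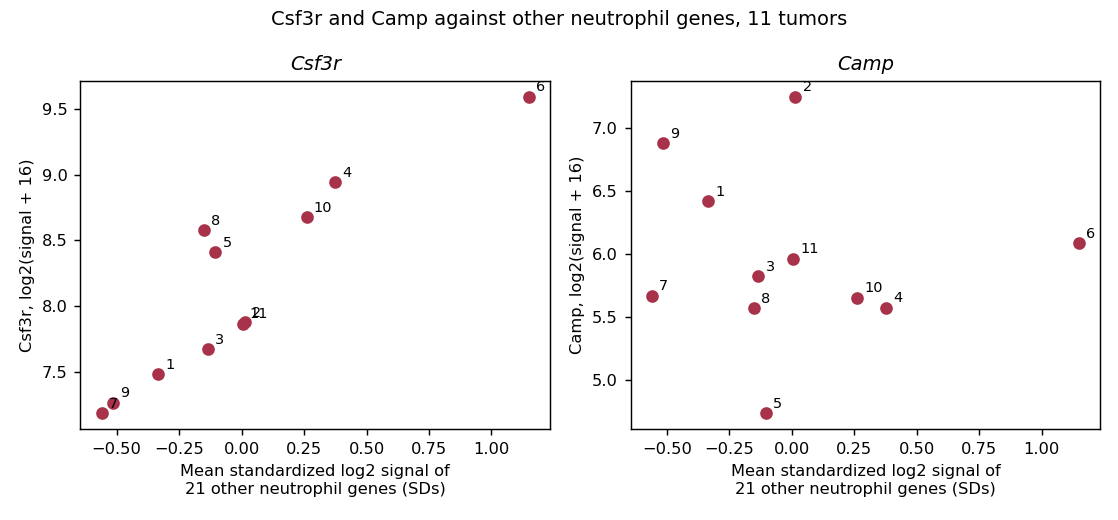
*Csf3r* (left) and *Camp* (right) on log2(signal + 16) in each of the 11 tumors, labelled by replicate number, against the mean standardized log2 signal of 21 other neutrophil genes. *Csf3r* follows the list (r = 0.90) with tumor 6 at the far end, and *Camp* does not (r = -0.10).

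The list itself is mixed in the same way. Of its 21 genes, 15 had a higher Spearman correlation with *Csf3r* than with *Camp*, led by *Hdc* (rho = 0.90), *Trem3* and *Alox5ap* (0.87 each), and 6 had a higher one with *Camp*, led by *Cd177* (rho = 0.65), which encodes a neutrophil surface protein. These are descriptions over 11 tumors. Among 7021 genes with a tumor median of at least 100 (7022 for *Camp*), those most like *Csf3r* over the tumors were *Nrros* (rho = 0.96), *Slfn4*, *Fcgr1*, *Gadd45b* and *Hmox1* (0.95 each). Those most like *Camp* were *Ngp* (0.95), *Tapt1* (0.90), *Tug1* (0.87), *Mtfr1* and *Vnn1* (0.85 each). Those most like *S100a8* were *S100a9* (0.99), *Selenon* (0.95), *Rhoq*, *F3* and *Il1r1* (0.94 each).

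In sorted basal cells these genes were at or near background. Of 72 values (12 probe sets on 6 arrays), 1 reached 30, *Il1r2* at 34.2 in control pool 1. The cells carried the keratins of their label, with *Krt5* at 3346 to 4671 and *Krt14* at 4376 to 7888, and *Ptprc*, which encodes the CD45 used to remove leukocytes in the sort, was at most 13.9. Of 10 genes shared by leukocytes, 4 were below 30 on all 6 arrays, and 19 of 60 values reached 30, the highest 916 for *Arhgdib*. Their luminal keratin signals were high as well, 1254 to 2139 for *Krt8*. RNA of these cells was amplified with another kit than tissue RNA, so the values are not set against tissue.

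The targeted gene, *Myc*, gave 1479, 1677 and 1869 in control pools and 141, 428 and 42.3 in Myc-deficient pools, in the order of the pool numbers. Whether the probe set lies in the deleted part is not known here. All 10 members were under the background limit by group median in both genotypes, so none was tested. With no filter on signal and no pairing of the pools, limma called 0 of 10, with a lowest adjusted p of 0.898, and 1 at an unadjusted p under 0.05. That 1 was *S100a8*, with 23.7, 11.8 and 14.1 in Myc-deficient and 1.29, 0.63 and 6.78 in control pools, all below 30.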

How the data were processed

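RNA of 25 tissue samples and 6 pools of sorted basal cells was measured on Affymetrix Mouse Genome arrays, 1 array each. The authors made the deposited intensity values with MAS5 in Affymetrix Expression Console (version not given in the sources used here), on a linear scale. Tissue RNA was labelled with a one-cycle kit and sorted cell RNA after NuGEN amplification, so they were fitted apart. Of 45037 probe sets, 34945 had 1 gene symbol.

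Signals were tested as log2(signal + 16) with limma 3.58.1 in R 4.3.3, in a fit over all tissue groups and one over sorted cells, with Benjamini-Hochberg adjustment and a call at 0.05. Probe sets entered a comparison where the median reached 30 in either group. The brightest probe set stood for a gene. The permutation test planned for correlations among tumors is not reported, since the tumor signals were among those that chose the genes. The number of arrays and signal over background limit the precision. The 10 genes and all lists were chosen with earlier results of these data known. In each list and comparison with control tissue, up to 4 called genes with the largest change and a median of at least 100 were named.

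Deviations of same-numbered sorted pools correlated at 0.22 to 0.26 over 3 pairs. The main fit of sorted cells did not use these pairs, and an alternative fit with the replicate number as a block did. In tissue the correlations ran from -0.14 to 0.11 over 27 pairs, and the numbers were not taken as pairs. On simulated data with 200 changed probe sets, 88% of 2-fold and 97% of 4-fold changes were recovered for tumors against control tissue, but 1% and 48% for sorted cells. Alternatives were other offsets, filters, normalization and designs, the rule of the study's methods, and leaving out each array. No sample column was left unused.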

Additional observations from a re-analysis of the deposited data

Results flagged for a closer look

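In groups of 4 or 5 arrays, the gap between the extreme array and its nearest neighbour was set against the range of the group for each of the 10 genes, 30 checks in all, and 4 passed the limit of Dixon's test. Chance flags about 1 in 20 such groups if their values are normally distributed. The check used linear signals, for which this was not tested, so that rate may not apply here. Whether the flags hold on the log scale used for the differences was not tested. In control tissue, array 1 stood above the others for *S100a8* (141, with the next at 32.7) and for *Clec4d* (90.9, with the next at 18.0). In small hyperplasias, array 3 stood above the others for *Camp* (27.7, with the next at 7.55) and for *Ngp* (91.6, with the next at 29.7). The *Camp* signals of that group all lay below the background limit of 30. The causes were not tested.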

How the results depend on the processing

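The median log2 difference of the 10 genes from control tissue was 3.86 in tumors, 3.38 in large hyperplasias and 2.02 in small hyperplasias with no offset, which gives dim signals more weight, and 0.49 in small hyperplasias with signals floored at 30. Leaving out 1 array at a time gave medians of 2.40 to 2.63, 1.81 to 2.25 and 1.00 to 1.20 in that order. Of the other neutrophil genes, the 1 called lower in small hyperplasias became 0 with no offset, with a floor at 30 and by the rule of the methods, 3 with no filter, 2 with only the groups compared, and 0 to 1 when leaving out an array. Calls higher when leaving out an array were 15 to 16 in tumors, 10 to 14 in large hyperplasias and 6 to 8 in small hyperplasias. With the replicate block, which pairs arrays by number, 15, 13 and 9 were higher, and 0 members were called in sorted cells, where none passed the filter. With quantile normalization, the correlation with the macrophage list was r = 0.69 for *Csf3r* and 0.76 for *Clec4e*. Leaving out 1 array turned the sign of *Ngp* in tumors against large hyperplasias (-0.62 to 0.10) and of *Camp* in small hyperplasias against control tissue (-0.07 to 0.30). No other log2 difference followed in this way turned. Those followed were the 10 members against control tissue and in tumors against large hyperplasias, and the genes named by the rule against control tissue. Large against small hyperplasias was not among them. The relations planned with the red blood cell list could not be run, since none of its genes reached 30 in tumors. The causes were not tested. Signals under 30, including nearly all values of sorted cells, give only a bound.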
